A study of Sus scrofa with 63 samples.

Results

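The spread of hepatic mRNA levels between animals of the same age was examined in offspring of sows fed a gestational high protein (HP) diet. Of 23935 probe-sets, 6689 were retained because their mean signal was 8 or more on the log2 scale in each of 4 ontogenetic stages, and the within-stage standard deviation (SD) between animals was then compared between the stages. The 6689 probe-sets included 4214 with 1 gene symbol, which stand for 3571 genes, 96 with several symbols and 2379 with none. The membership rule used the stage means only, so the SD was not used to choose members, but the genes named below for a high SD were picked by it and are therefore described without a test.

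Liver RNA of 63 pigs was hybridised to porcine microarrays, with 1 array per animal. The stages were late fetuses at 94 days post conception (dpc; n = 16), newborn piglets at 1 day post natum (dpn; n = 16), piglets around weaning at 28 dpn (n = 15) and finishing pigs at 188 dpn (n = 16). All animals were German Landrace offspring of gilts that received the HP diet during gestation, and no group on another diet was used here. The fetuses came from a separate experiment with delivery by Caesarean section, whereas the newborns of 1 dpn were taken shortly after birth, and the piglets kept to 28 and 188 dpn were reared by foster sows, with the males castrated. The study's methods describe sib pairs balanced for sex in every stage, with the light and the heavy littermate chosen at 94 dpc and 1 dpn only. At 28 and 188 dpn, per the study, animals near the middle of the growth range were taken. Sibs are not independent animals, and sex, mother, pair and weight are not in the labels, so the SD of a stage contains all of them and no p-value takes litters into account. With 1 array per animal, the SD also contains the variation of labelling and hybridisation. The way of killing, an overnight fast at 28 and 188 dpn and the choice of animals by weight also differed between the stages. So did the signal of RNAs added at labelling between 94 dpc and 1 dpn, as given below. Age cannot be told apart from these differences. In whole liver, fewer cells of a type and less RNA per cell cannot be told apart.

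Some arrays stood apart from the others of their stage. At 94 dpc these were replicates 6 and 13, and at 1 dpn replicates 9, 11 and 12, picked with earlier results of these data known. Most results were recomputed without them and are given both ways below where a call or a value moved. The 1 dpn replicate 4, which also weighed on the spread, was kept in these settings. Hepatocyte markers were high throughout, with a mean of 4 markers between 15.04 and 16.18 on the log2 scale in all 63 animals. The macrophage markers were less even at 94 dpc, where the mean of 4 markers had a lowest value of 7.31, a median of 10.10 and a highest value of 10.57, and its SD was 0.75 with all arrays and 0.25 without replicates 6 and 13.

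Between-animal variation in the liver has well known components. Immediate early genes such as FOS respond within minutes to stress and handling, interferon-stimulated genes rise together when the antiviral response is switched on, and the enzymes of cholesterol synthesis are driven jointly by sterol-sensing transcription factors. Enzymes of fatty acid synthesis and gluconeogenesis follow feeding and fasting, while ribosomal proteins and respiratory chain subunits are commonly expressed at steady levels. Around birth, blood formation in the liver recedes and the metabolism of the adult organ is established.

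The spread was widest at 1 dpn. The median SD of the 6689 probe-sets was 0.270 ± 0.0351 in the fetuses of 94 dpc, 0.345 ± 0.0211 in the newborns of 1 dpn, 0.254 ± 0.00886 at 28 dpn and 0.304 ± 0.0156 at 188 dpn (log2 signal, ± jackknife SE over arrays). From the widest to the narrowest the order was thus 1 dpn, 188 dpn, 94 dpc and 28 dpn. After quantile normalization between arrays 94 dpc (0.304) lay above 188 dpn (0.271), with 1 dpn still highest (0.365) and 28 dpn lowest (0.240). The 94 dpc value was within its SE of both 188 dpn and 28 dpn, and the intervals of 1 SE around 1 dpn and 188 dpn did not overlap. This is not a test, and the jackknife left out single animals and took no account of sib pairs. Without replicates 6 and 13 the median at 94 dpc was 0.228, the lowest of the stages, whereas the median at 1 dpn was 0.331 without replicates 9, 11 and 12 and stayed the highest. Leaving out 1 dpn replicate 4 alone gave a median of 0.330 at 1 dpn. An SD of 1, which means a typical animal lies a factor of 2 from the mean, was reached by 79 probe-sets at 1 dpn, 55 at 94 dpc, 26 at 188 dpn and 12 at 28 dpn.

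**Figure D1:**
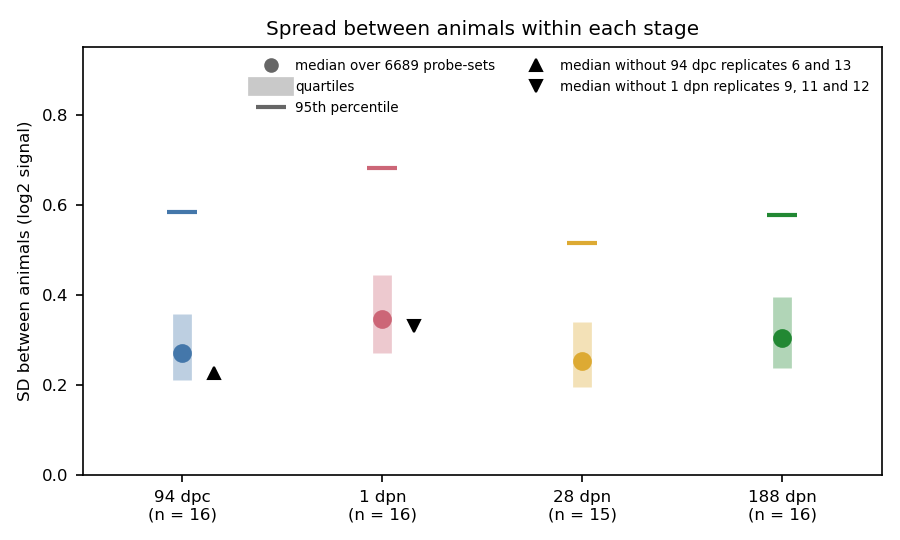
SD between animals (log2 signal) of the 6689 probe-sets in each stage, with the median as a circle, the quartiles as a box and the 95th percentile as a line, and triangles for the median without the arrays that stood apart. The median is highest at 1 dpn (0.345), and at 94 dpc it is 0.270 with all arrays and 0.228 without replicates 6 and 13.

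Most probe-sets moved in the same direction between adjacent stages, though far fewer were called in the tests below. Probe-sets of the same arrays are not independent, and 1 array can move many of them. Without 94 dpc replicate 6 alone the median SD at 94 dpc was 0.235, against 0.270 with all arrays. The SD was larger at 1 dpn than at 94 dpc in 72.6% of the probe-sets, with a median ratio of 1.25. It was larger at 28 dpn than at 1 dpn in only 21.4%, with a median ratio of 0.736. At 188 dpn the SD exceeded that at 28 dpn in 73.0%, with a median ratio of 1.19. Weakly expressed genes varied more, since probe-sets with a mean between 8 and 9 had a median SD of 0.327, 0.373, 0.306 and 0.346 at 94 dpc, 1 dpn, 28 dpn and 188 dpn, against 0.218, 0.293, 0.200 and 0.251 in those with a mean of 12 or more. The highest value was that of 1 dpn in both classes of level.

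From weaning on the same genes tended to vary. Across probe-sets the SD at 188 dpn and at 28 dpn had a Spearman correlation of 0.692, and 44 of the 100 most variable probe-sets of each were shared. The correlation of 1 dpn with 94 dpc was 0.458, with 29 of 100 shared. These are correlations across genes, which are not independent replicates, and all stages share the dependence of the SD on the signal level.

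At 94 dpc the gene with the widest spread was C9, a component of the terminal complement complex. Its signal had a lowest value of 5.81, a median of 11.93 and a highest value of 13.25, an SD of 2.75. The fetuses fell apart into 4 animals at 7.15 or below and 12 animals at 11.57 or above, with no value in between. The low class lay near the array background, taken as the 95th percentile of the tag controls. This background had a median of 6.07 and a highest value of 6.94 at 94 dpc. Ranges that reach down to it are uncertain at their low end. Without replicates 6 and 13 the SD of C9 at 94 dpc was 2.88. After birth the gene was far more even, with an SD of 0.82 at 1 dpn, 0.24 at 28 dpn and 0.29 at 188 dpn. The detoxifying glutathione transferase GSTA1 had a comparable spread before and just after birth. Its lowest, median and highest signals were 5.87, 11.38 and 13.62 at 94 dpc and 8.25, 14.23 and 15.28 at 1 dpn, with SDs of 2.33 and 2.08. At 28 and 188 dpn the SD of GSTA1 was 0.32 and 0.27, with all animals high.

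FOS, the immediate early transcription factor, ranged from 7.42 to 14.55 with a median of 11.28 at 94 dpc and had an SD of 2.05. This is a 141-fold range between fetuses, spread evenly over the animals rather than in separate clusters. Interferon-stimulated genes were also among the 10 most variable of the fetal liver. ISG15, a ubiquitin-like protein, had signals of 4.78, 8.12 and 11.44 (lowest, median, highest; SD 1.50), MX1, an antiviral GTPase, had 6.20, 7.99 and 11.32 (SD 1.35), and ISG12(A) had 9.05, 9.76 and 14.08 (SD 1.39). Their spread depended in part on the arrays that stood apart, since the SDs were 0.94, 1.06 and 0.98 without replicates 6 and 13. SEC61A1, a subunit of the protein translocation channel of the endoplasmic reticulum, depended on them almost entirely, as its SD of 1.34 became 0.34. Of the 10 most variable genes at 94 dpc, 6 were also among the 10 most variable without these arrays, and of the 40 most variable, 23 were. The lowest ISG15 signal of 4.78 lay under the array background at 94 dpc, which ranged from 5.07 to 6.94.

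Of the 40 most variable genes at 1 dpn, 5 were in the cholesterol synthesis list and 19 in no list of pathways or cell types. IGFBP1, an insulin-repressed binding protein of the insulin-like growth factors, ranged from 9.65 over a median of 13.15 to 15.19 (SD 1.63). The cholesterol synthesis enzymes MSMO1 and HMGCS1 had SDs of 1.57 and 1.49. HMGCS1 lay at a median of 9.09, but 3 of the 16 piglets were set off from the other 13 by a gap of 1.85 and reached up to 13.00. CYP2C49, a cytochrome P450, ranged from 9.89 over 11.75 to 14.52 (SD 1.35), and the metallothionein MT3 had an SD of 1.44. FCN2, a ficolin that starts the lectin pathway of complement, ranged from 7.67 over 12.10 to 13.00 (SD 1.63). The SD of FCN2 at 94 dpc was 1.15 with all arrays and 0.40 without replicates 6 and 13.

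At 28 dpn fewer genes had a wide spread. Of the 40 most variable genes, 3 were in the interferon response list, 1 was an acute phase gene and 23 were in no list. LBP, the lipopolysaccharide-binding acute phase protein, ranged from 11.11 over 13.70 to 14.67 (SD 1.08). ISG15 ranged from 11.52 over 13.23 to 14.57 (SD 0.97), and NPG4, annotated as a cathelicidin, an antimicrobial peptide of myeloid cells, had an SD of 1.12. IGF2, the fetal growth factor, ranged from 6.31 over 8.77 to 9.41 (SD 0.93), and AHSP, the chaperone of alpha-globin in red cell precursors, had an SD of 0.97. The IGF2 values are those of 1 probe-set. The other member probe-sets of IGF2 had higher means and SDs of 0.34 to 0.42, with r of 0.51 to 0.71 to it.

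Of the 40 most variable genes at 188 dpn, 6 were in the fatty acid and triglyceride synthesis list, 1 was in the cholesterol synthesis list and 22 were in no list. HMGCS1 ranged from 8.18 over 9.75 to 12.35 (SD 1.37), FASN, the fatty acid synthase, from 10.56 over 11.76 to 14.02 (SD 1.17), and SCD, the stearoyl-CoA desaturase, from 11.31 over 13.35 to 14.64 (SD 1.15). The desaturase FADS1 had an SD of 1.17 as well. SCD had SDs of 0.32, 1.26, 0.35 and 1.15 at 94 dpc, 1 dpn, 28 dpn and 188 dpn, and FASN 0.45, 0.99, 0.57 and 1.17, so both were uneven in the newborn and the finishing stage. TSKU, a small secreted proteoglycan, ranged from 8.12 over 11.02 to 13.16 (SD 1.38), and the amylase AMY2 had an SD of 1.19.

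**Figure D2:**
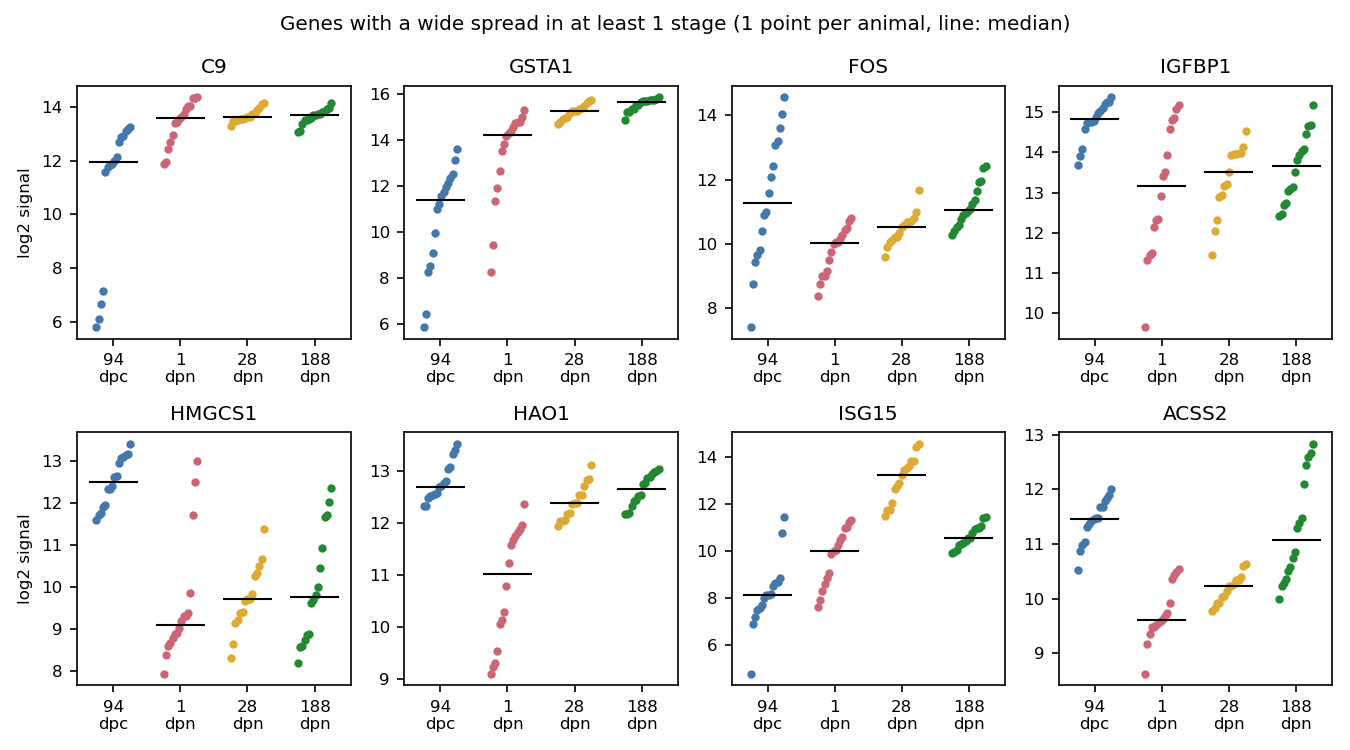
Log2 signal of 8 genes in every animal of the 4 stages, with points sorted by value within a stage and a line at the median. C9 falls into a low and a high class of fetuses at 94 dpc, HMGCS1 reaches 13.00 in few newborns, and ISG15 spans 4.78 to 11.44 at 94 dpc.

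Few genes varied in all stages. Of the 100 most variable probe-sets of each stage, 10 were in all 4 lists, and 5 of these had 1 symbol, namely RSF1, GALP, NPG4, ATP2A2 and ARG2. RSF1, a chromatin remodelling factor, had SDs of 1.65, 1.61, 2.71 and 3.02 from 94 dpc to 188 dpn. At 188 dpn 5 pigs lay below and 11 above a gap of 4.13, over a whole range of 6.08 to 14.15, and at 28 dpn 4 lay below and 11 above a gap of 5.02. A further probe-set, whose annotation lists TMSB4X under 2 gene identifiers, had SDs of 3.06, 2.90, 3.40 and 3.23. Its animals formed a low and a high class of 7 and 9 at 94 dpc, 8 and 8 at 1 dpn, 8 and 7 at 28 dpn and 9 and 7 at 188 dpn. The signal of EIF1AY, which lay below a mean of 8, followed it with r = 0.95, 0.95, 0.96 and 0.89 in these stages, and the sex of the animals is not in the labels.

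The spread was compared with that of other probe-sets of the same gene where the gene had another member probe-set. C9, FOS and RSF1 had none. Among the 40 most variable genes, another member probe-set correlated at r of 0.7 or more over the animals in 10 of 15 genes at 94 dpc, 7 of 10 at 1 dpn, 6 of 11 at 28 dpn and 12 of 18 at 188 dpn. Over all genes with several probe-sets this share was 22.0%, 39.0%, 26.3% and 37.3%. These counts are given with all arrays only. At 94 dpc they include SEC61A1, CD53, LOC100153094, NPG4 and FGL2, which belong to a group described below that rested on 1 array. Agreement of their probe-sets therefore cannot tell a spread between fetuses from that array. For GSTA1 the correlation was 0.97 at 94 dpc and 0.99 at 1 dpn, and for ACSS2 at 188 dpn it was 0.97. ATP2A2, the calcium pump of the endoplasmic reticulum, was 1 of the genes that did not reach it, with r between -0.43 and 0.15 to its 3 other probe-sets and SDs of 0.18 to 0.42 in those. The probe-set of ATP2A2 named here therefore had a spread that the other probe-sets of this gene did not share.

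The most even genes were VAPA, TMEM230, NDUFV2, CRKL, 1 of the probe-sets of CERS2, and DCTN4. Their highest SD over the 4 stages was between 0.152 and 0.163. VAPA anchors membrane contact sites of the endoplasmic reticulum and NDUFV2 is a subunit of respiratory complex I. Among the genes with a PCR assay, the reference gene RPL10 had SDs of 0.20, 0.21, 0.24 and 0.24, and NDUFA4 of complex I had 0.26, 0.22, 0.12 and 0.14. DHCR7, the last enzyme of cholesterol synthesis, had 0.30, 0.43, 0.43 and 0.41. At the edge of the membership rule, STARD10 had a lowest stage mean of 8.0004 and was kept, and PPRC1 had 7.9993 and was not.

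The difference in spread was tested with limma on the absolute deviations of the animals from the median of their stage, fitted over all 23935 probe-sets. The spread differed between the 4 stages in 125 of the 6689 members, or 1.87%, at an adjusted p of 0.05, and the share over all probe-sets tested was 2.03%. The members were thus called no more often than the array as a whole. Of the 125 probe-sets, 74 had their largest mean deviation at 1 dpn, 28 at 188 dpn, 22 at 94 dpc and 1 at 28 dpn. The smallest was at 94 dpc in 54 and at 28 dpn in 49.

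From the fetal to the newborn stage (period I, 1 dpn minus 94 dpc) the spread was larger in 42 members and smaller in 4. These are 0.628% and 0.0598% of the members, against 0.334% and 0.0961% of all probe-sets tested. Without the 1 dpn replicates 9, 11 and 12 the counts were 5 larger and 4 smaller, and without the 94 dpc replicates 6 and 13 they were 80 larger and 7 smaller. The mean level was lower at 1 dpn in 57.1% of the 42, against 53% of all members. The largest difference was that of IGFBP1, which had lowest, median and highest signals of 9.65, 13.15 and 15.19 at 1 dpn, against 13.69, 14.83 and 15.37 at 94 dpc. Its SD was 1.63 at 1 dpn and 0.49 at 94 dpc, and its mean absolute deviation differed by 1.03 ± 0.203 (SE; adjusted p = 0.00900). The fetuses were uniformly high, whereas the newborns spread downwards.

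Of 13 cholesterol synthesis genes 4 were also called larger at 1 dpn. MSMO1, a sterol methyl oxidase, had signals of 8.16, 10.87 and 13.89 at 1 dpn, against 13.33, 13.65 and 14.30 at 94 dpc, and its mean absolute deviation was larger by 0.90 ± 0.224 (adjusted p = 0.0470). ACAT2, FDPS and FDFT1 of the same pathway, which were named after their values were seen, also had a larger spread at 1 dpn. FDPS had an SD of 0.91 at 1 dpn and 0.23 at 94 dpc (adjusted p = 0.0321), and FDFT1 had 0.98 at 1 dpn and 0.19 at 94 dpc (adjusted p = 0.0485). Without the 1 dpn replicates 9, 11 and 12 none of the 4 genes was called, with an adjusted p of 0.0789 for MSMO1, 0.0577 for FDPS, 0.161 for FDFT1 and 0.0998 and 0.154 for the ACAT2 probe-sets. Their SDs at 1 dpn were then 1.71 for MSMO1, 1.00 for FDPS and 0.95 for FDFT1. Without the 94 dpc replicates 6 and 13 MSMO1 (adjusted p = 0.0542) and FDFT1 (0.0558) lost the call. That of MSMO1 was also lost on leaving out any 1 of 34 of the 63 arrays, with an adjusted p of at most 0.0913.

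GULO, which catalyses the last step of vitamin C synthesis in the pig, had signals of 10.34, 12.04 and 13.57 at 1 dpn, against 13.88, 14.10 and 14.44 at 94 dpc. The groups did not overlap in level, and the deviation was larger by 0.75 ± 0.153 at 1 dpn (adjusted p = 0.0103). WEE1, a kinase that holds back mitosis, had 5.35, 9.05 and 10.13 at 1 dpn, against 8.89, 9.57 and 10.35 at 94 dpc, a difference in deviation of 0.84 ± 0.194 (adjusted p = 0.0293). STMN1, a microtubule-destabilising protein of dividing cells, had 9.36, 12.15 and 13.07 at 1 dpn, against 11.55, 11.93 and 12.37 at 94 dpc, a difference of 0.73 ± 0.158 (adjusted p = 0.0180). Both rested on few newborns, as without the 1 dpn replicates 9, 11 and 12 the SD at 1 dpn was 0.86 for WEE1 and 0.67 for STMN1, and the adjusted p was 0.316 and 0.0998. WEE1 also lost its call without any 1 of 94 dpc replicate 7 and 1 dpn replicates 2, 4, 6, 9, 10, 11 and 12 (adjusted p of at most 0.120), and STMN1 without 1 dpn replicate 12 (0.0522).

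The spread of FOS and PCK1 was smaller after birth. FOS had signals of 8.38, 10.03 and 10.81 at 1 dpn, against 7.42, 11.28 and 14.55 at 94 dpc, and its deviation fell by 1.15 (SE 0.233; adjusted p = 0.0103). PCK1, the gatekeeper of gluconeogenesis, had 12.44, 13.53 and 14.60 at 1 dpn, against 10.81, 12.85 and 14.30 at 94 dpc, and its deviation fell by 0.71 (SE 0.145; adjusted p = 0.0103). The fetuses therefore covered the wider range in both genes. The other 2 probe-sets with a smaller spread had no symbol, and 1 of them had an SD of 0.21 at 1 dpn and 0.73 at 94 dpc (adjusted p = 2.65e-06).

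From birth to weaning (period II, 28 dpn minus 1 dpn) most called members had a smaller spread at 28 dpn. It was smaller at 28 dpn in 26 members, or 0.389%, against 0.242% of all probe-sets tested, and larger in 1 member, or 0.0149%, against 0.071%. Without the 1 dpn replicates 9, 11 and 12 the counts were 2 smaller and 1 larger. Periods I and II share the 1 dpn animals, so the 2 sets of calls are not independent. HAO1, the peroxisomal glycolate oxidase, had signals of 11.95, 12.38 and 13.12 at 28 dpn, against 9.11, 11.02 and 12.36 at 1 dpn, and its deviation fell by 0.74 (SE 0.117; adjusted p = 0.000401). In period I the deviation of HAO1 was larger by 0.72 ± 0.115 at 1 dpn (adjusted p = 0.000274), with an SD of 1.12 at 1 dpn and 0.37 at 94 dpc. Without the 1 dpn replicates 9, 11 and 12 that difference was 0.60 and was not called (adjusted p = 0.163).

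Histone HIST1H2BD had 12.10, 12.60 and 13.16 at 28 dpn, against 8.32, 10.39 and 11.61 at 1 dpn, and its deviation fell by 0.72 (SE 0.123; adjusted p = 0.00146). GALM, the mutarotase that feeds galactose into metabolism, had 11.28, 11.44 and 11.81 at 28 dpn, against 9.12, 10.64 and 11.51 at 1 dpn, and fell by 0.58 (SE 0.103; adjusted p = 0.00178). MDK, a heparin-binding growth factor of developing tissue, had 9.76, 10.39 and 10.80 at 28 dpn, against 6.74, 8.72 and 10.05 at 1 dpn, and fell by 0.72 (SE 0.164; adjusted p = 0.0271). These genes were higher and more uniform at 28 dpn. HNRNPL, an RNA-binding splicing regulator, had an SD of 0.61 at 28 dpn and 1.33 at 1 dpn (difference in deviation -0.66, SE 0.162; adjusted p = 0.0448). Without the 1 dpn replicates 9, 11 and 12 the adjusted p was 0.148 for HAO1, 0.295 for MDK, 0.370 for HNRNPL and 0.0569 for GALM, whereas HIST1H2BD kept its call. HNRNPL also lost its call on leaving out any 1 of 43 of the 63 arrays, with an adjusted p of at most 0.184, and under trend and robust moderation or a ratio of variances, and MDK lost it without any 1 of 1 dpn replicates 1, 4, 7, 9, 10, 11 and 12 (adjusted p of at most 0.0944).

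The 1 gene with a larger spread at 28 dpn was FNTA, the alpha subunit of protein farnesyltransferase. It had signals of 11.98, 13.38 and 14.41 at 28 dpn, against 14.94, 15.16 and 15.44 at 1 dpn, and an SD of 0.73 at 28 dpn and 0.16 at 1 dpn (difference in deviation 0.46, SE 0.092; adjusted p = 0.00757). In this probe-set the level fell as the spread grew, and the groups did not overlap. Another member probe-set of FNTA had an SD of 0.22 at 28 dpn, with r = -0.27 to the first.

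**Figure D3:**
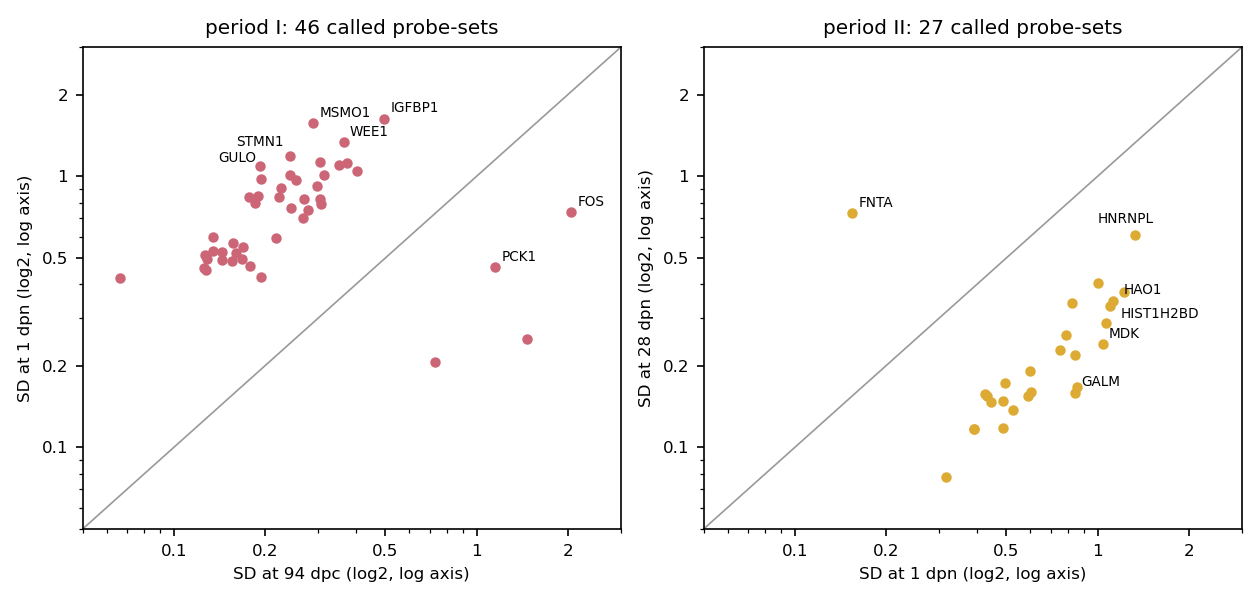
SD of the called probe-sets (log2 signal, log axes) in the later stage against the earlier stage for period I and period II, with a line of equal SD. In period I 42 of 46 lie above the line and FOS and PCK1 below it, and in period II 26 of 27 lie below it and FNTA above it.

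From weaning to the finishing stage (period III, 188 dpn minus 28 dpn) 1 member had a larger spread, or 0.0149%, against 0.0292% of all probe-sets tested, and no member a smaller one, against 0.00418%. At an unadjusted p of 0.05 limma gave 351 larger and 24 smaller. The 1 member was ACSS2, which makes acetyl-CoA from acetate for lipid synthesis. It had signals of 9.99, 11.07 and 12.83 at 188 dpn, against 9.77, 10.22 and 10.63 at 28 dpn, with an SD of 0.97 at 188 dpn and 0.26 at 28 dpn (difference in deviation 0.64, SE 0.130; adjusted p = 0.0263). The second probe-set of ACSS2 had SDs of 1.1 at 188 dpn and 0.42 at 28 dpn and was not called (difference 0.56; adjusted p = 0.480). The call of the first was lost on leaving out any 1 of 11 arrays of 28 and 188 dpn (adjusted p of at most 0.325).

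Which of the variable genes varied together was examined among the 40 genes of the highest SD in each stage. Genes were grouped where every pair correlated at r of 0.7 or more within the stage, and each of the 120 resulting pairs was then tested in the animals of the other 3 stages, which had not been used for the grouping. Of the 120 pairs, 51 (42.5%) were correlated there by a permutation test of Pearson's r within stages with adjustment over the 120 pairs. Among 3000 pairs of variable genes that shared no group, 5.4% reached the smallest correlation called, and among all pairs of the 3571 genes 8.89% to 10.6% did, depending on the stage left out. Some pairs were chosen in more than 1 stage and are counted each time.

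The interferon-stimulated genes ISG15, MX1, ISG12(A) and USP18, the protease that removes ISG15 from its targets, formed a group at 94 dpc. All 6 of their pairs were correlated in the postnatal animals, with r between 0.70 and 0.89. The pair ISG15 and MX1 was also grouped at 1 dpn and 28 dpn, and its r within 94 dpc, 1 dpn, 28 dpn and 188 dpn was 0.90, 0.91, 0.96 and 0.82. Outside 94 dpc the stage-centred r was 0.89 and Spearman's rho 0.89 (47 animals, permutation test, adjusted p = 5e-05, the smallest the permutations can give). Animals with a high ISG15 signal had a high MX1 signal in each of the stages.

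Cholesterol synthesis enzymes formed the group of 1 dpn. MSMO1, HMGCS1, CYP51 and SQLE, which act between the start of the mevalonate pathway and the removal of the methyl groups of lanosterol, correlated at 1 dpn with r between 0.89 and 0.95. In the other 3 stages all 6 pairs were correlated, with r between 0.71 and 0.86. HMGCS1 and SQLE had r = 0.86 and rho = 0.84 there (47 animals, permutation test, adjusted p = 5e-05), and r was 0.88 without the 2 animals farthest from the median. At 188 dpn HMGCS1 joined FASN and ACSS2 in a group with r between 0.83 and 0.89. In the earlier stages these 3 pairs had r between 0.48 and 0.55, all called.

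**Figure D4:**
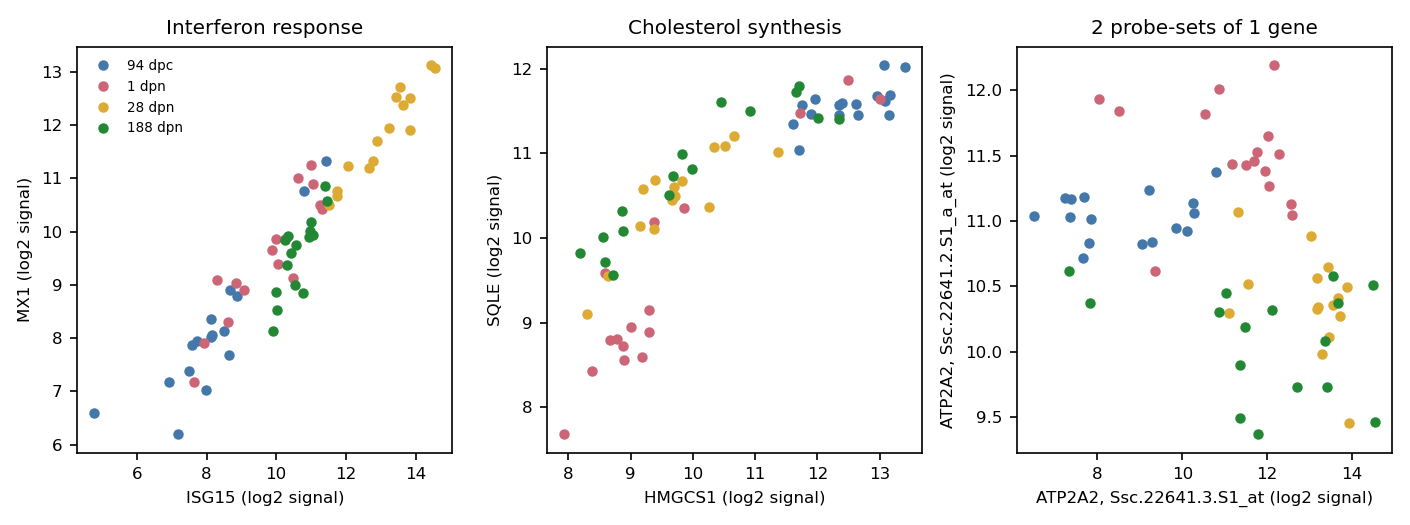
Log2 signals of ISG15 and MX1, of HMGCS1 and SQLE, and of 2 probe-sets of ATP2A2, with 1 point per animal coloured by stage. The first 2 pairs rise together within each stage, whereas the probe-sets of ATP2A2 do not.

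The immediate early genes FOS and JUN, which form the AP-1 transcription factor, correlated at 94 dpc with r = 0.87. In the postnatal animals r was 0.52 and rho 0.53 (47 animals, permutation test, adjusted p = 0.00199 for r and 0.00168 for rho). PCK1 was grouped with GADD45G and CREM at 94 dpc, with r between 0.87 and 0.89. CREM is a cAMP-responsive transcription factor and GADD45G a stress-induced gene, and in the postnatal animals none of these 3 pairs was called, with r between 0.11 and 0.18. At 1 dpn WEE1 and STMN1 were grouped with UPB1, an enzyme of pyrimidine breakdown. Of these pairs WEE1 and STMN1 alone were called by r in the other stages, with r = 0.45 and rho = 0.39 (permutation test, adjusted p = 0.00729 and 0.0229). WEE1 and UPB1 had r = 0.74 at 1 dpn but the opposite sign in the other stages. There r was -0.19 and rho -0.33 (permutation test, adjusted p = 0.311 and 0.0446).

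The largest group, of 12 genes at 94 dpc, rested on 1 array. It held SEC61A1, C1QC, CD53, LCP2, FGL2, NPG4, PDIA3, CLEC3B, TMEM140, RNASET2, ARL6IP5 and LOC100153094, several of which are genes of macrophages and other leukocytes, with a median r of 0.91. In the postnatal animals 17 of its 66 pairs were called and the median r was 0.20. Without the 94 dpc replicates 6 and 13 the grouping gave 27 pairs at 94 dpc, 18 of them called elsewhere. C1QC, a chain of complement C1q made by macrophages, had an SD of 1.16 at 94 dpc with all arrays and 0.37 without these replicates.

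Further groups appeared at 28 and 188 dpn, and the calls of 28 dpn depended on the labelling. Of the 11 pairs grouped at 28 dpn 8 were called elsewhere. After a fit on the 3′ minus 5′ signal of the RNAs added at labelling 3 of 11 were called. Another probe-set of CERS2, a ceramide synthase, RNASET2, a lysosomal ribonuclease, and TMEM140 had r between 0.83 and 0.86 outside 28 dpn, and between 0.63 and 0.76 without the 2 farthest animals. AHCY, which hydrolyses S-adenosylhomocysteine, was grouped at 188 dpn with ZC3H10 and RPL24, and all 3 pairs were called elsewhere with r between 0.60 and 0.69. The variable probe-sets of these 3 genes had low correlations with other probe-sets of their genes, namely 0.27 at 28 dpn and -0.10 at 188 dpn for AHCY, 0.42 for ZC3H10 and 0.33 for RPL24. ABHD5, the activator of triglyceride lipase, and CPT1A, the entry enzyme of mitochondrial fatty acid oxidation, had r = 0.93 at 188 dpn but 0.29 in the other stages, which was not called (permutation test, adjusted p = 0.144).

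Gene lists of pathways and cell types showed how far the functional groups varied as a unit. Over all 3571 genes the median SD was 0.25, 0.33, 0.24 and 0.28 at 94 dpc, 1 dpn, 28 dpn and 188 dpn, and the median correlation between 2 genes lay near 0 in each stage. Each list was measured with 1 member probe-set per gene, which was not always that of the highest SD, and the values are descriptions.

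The interferon response list had 13 members of 42 genes, with a median SD of 0.68, 0.77, 0.54 and 0.37. Without the arrays that stood apart the median SD was 0.43 at 94 dpc and 0.62 at 1 dpn. Its median r between genes was 0.76, 0.80, 0.48 and 0.26, and without the arrays that stood apart it was 0.58 at 94 dpc and 0.70 at 1 dpn. The mean of the list had lowest, median and highest values of 7.87, 8.69 and 10.67 at 94 dpc, 8.25, 9.63 and 10.48 at 1 dpn, 10.35, 11.04 and 11.67 at 28 dpn and 9.24, 9.62 and 10.30 at 188 dpn. The level of the list was highest at 28 dpn. With all arrays its median SD was larger at 94 dpc and 1 dpn than at 28 dpn. Without the arrays that stood apart this held at 1 dpn only. The SD of the list mean at 94 dpc was then 0.46, against 0.41 at 28 dpn. No member of this list was called in any period.

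The cholesterol synthesis list had 13 members of 27 genes, with a median SD of 0.29, 0.98, 0.50 and 0.53 and a median r of 0.32, 0.57, 0.57 and 0.47. In period I 4 of the 13 genes had a larger spread at 1 dpn, against 0.334% of all probe-sets tested, and none a smaller one. The mean of the list had lowest, median and highest values of 12.13, 12.33 and 12.82 at 94 dpc and 9.91, 10.43 and 12.25 at 1 dpn, so that the newborns with the highest values reached the fetal range. INSIG1, a sterol-dependent brake on the pathway, had SDs of 0.78, 1.08, 0.50 and 0.53. The fatty acid and triglyceride synthesis list, with 11 members of 24 genes, had a median SD of 0.36, 0.72, 0.35 and 0.88, wide in the newborn and the finishing stage, but a median r of only 0.07, 0.12, 0.03 and 0.28.

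Immediate early and stress genes, with 15 members of 35, had a median SD of 0.70, 0.63, 0.32 and 0.48 and a median r of 0.60, 0.39, 0.20 and 0.24. EGR1, an early transcription factor, had SDs of 0.98, 1.25, 0.56 and 0.80. The cell cycle list, with 9 members of 41, had a median SD of 0.30, 0.69, 0.37 and 0.36 and a median r of 0.60, 0.73, 0.48 and 0.25. Without the arrays that stood apart its median SD was 0.22 at 94 dpc and 0.44 at 1 dpn, and its median r was 0.40 and 0.60. In this list PCNA, the sliding clamp of DNA replication, had SDs of 0.47, 0.83, 0.42 and 0.36.

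Macrophage and Kupffer cell genes, with 14 members of 27, had a median SD of 0.76, 0.49, 0.27 and 0.34, and of 0.36 at 94 dpc without replicates 6 and 13. Their median r was 0.83 at 94 dpc with all arrays and 0.25 without replicates 6 and 13, and 0.42, 0.23 and 0.24 in the later stages. The mean of the list at 94 dpc had lowest, median and highest values of 8.04, 10.56 and 11.03 with all arrays and lay between 10.11 and 10.80 without these replicates. The MHC list, with 14 members of 22, had a median SD of 0.76, 0.74, 0.32 and 0.38, and without replicates 6 and 13 the median at 94 dpc was 0.57. SLA-8 of class I had SDs of 1.08, 0.70, 0.68 and 0.97. These were the highest of the list except at 1 dpn, where the highest was 0.94. The part of cell composition in the spread of other genes was not tested.

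Lists of steady cell functions had a small spread that was nevertheless shared. The 56 ribosomal protein genes of 77 had a median SD of 0.19, 0.17, 0.18 and 0.22 and a median r of 0.79, 0.63, 0.76 and 0.79. Oxidative phosphorylation, with 54 members of 80 genes, had a median SD of 0.22, 0.31, 0.15 and 0.21 and a median r of 0.49, 0.58, 0.29 and 0.40, with 2 genes of a larger spread in period I and 1 of a smaller spread in period II, against 0.334% and 0.242% of all probe-sets tested. Without replicates 6 and 13 the median SD of the list at 94 dpc was 0.14 and its median r was 0.28. Hepatocyte secreted proteins, with 28 members of 42, had a median SD of 0.21, 0.27, 0.24 and 0.26. Cytochromes P450 and other drug metabolism genes, with 12 members of 35, had a median SD of 0.45, 0.78, 0.32 and 0.35 but a median r of only 0.11, 0.05, 0.25 and 0.24. A wide spread and a shared spread were thus different properties of a list.

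**Figure D5:**
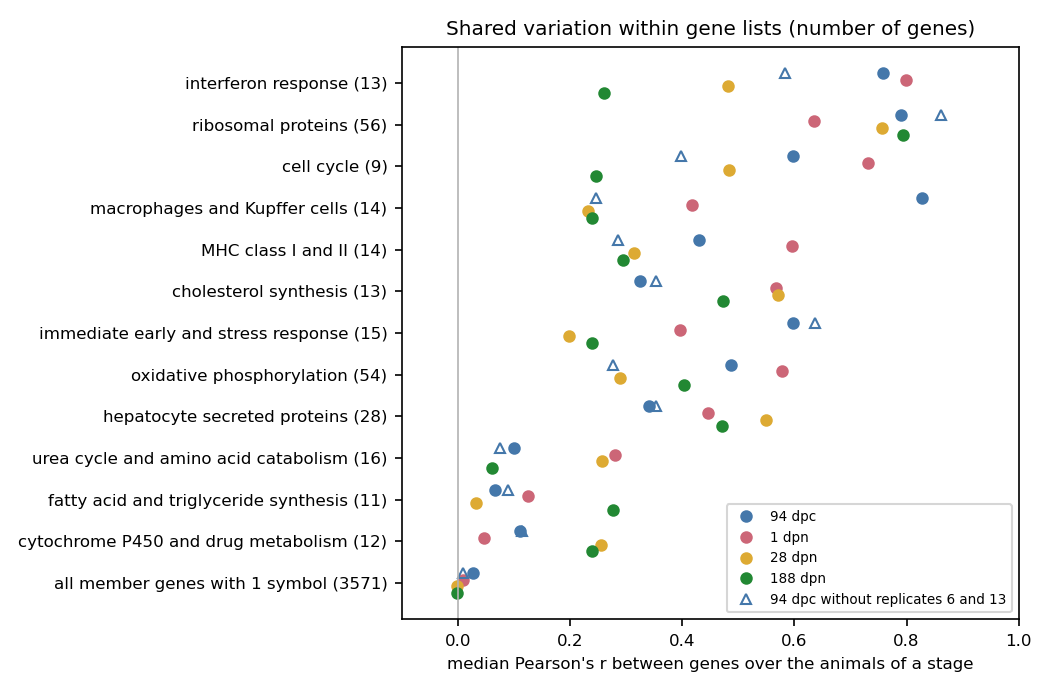
Median Pearson's r between the genes of a list over the animals of a stage, with the number of genes in brackets, filled circles for the 4 stages and an open triangle for 94 dpc without replicates 6 and 13. The macrophage list lies at 0.83 at 94 dpc with all arrays and at 0.25 without these replicates, and all member genes lie near 0.

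The first principal component of the within-stage deviations held 33.4% of the variance at 94 dpc (jackknife SE 15.8), 22.9% at 1 dpn (SE 3.00), 28.6% at 28 dpn (SE 6.15) and 28.3% at 188 dpn (SE 5.23). At 94 dpc 82.9% of this component came from 1 array, and without replicates 6 and 13 its share was 14.4%. At 1 dpn 40.6% of the component came from 1 array. Array measures of RNA and labelling were compared with the component in 20 tests. At 94 dpc the 3′ minus 5′ signal of actin correlated with it at r = -0.87 and that of GAPDH at r = -0.93 (16 arrays, permutation test, adjusted p = 0.043 and 0.042; Spearman's rho -0.57 and -0.55), and without the 2 farthest arrays r was -0.33 and -0.34. The 3′ minus 5′ signal of the RNAs added at labelling had a rho of 0.75 with it (adjusted p = 0.0218; r = 0.58, adjusted p = 0.0672). This signal of the added RNAs was 0.00765 to 0.258 at 94 dpc and 0.576 to 1.22 at 1 dpn, so these stages did not overlap in it. At 28 dpn the added RNAs divided the arrays into 8 at 1.39 to 1.91 and 7 at 0.716 to 0.973, and at 188 dpn into 4 at 1.39 to 1.70 and 12 at 0.655 to 0.940.

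Of the most variable genes, few followed an array measure in 160 tests over the animals of a stage. LOC100517803 at 94 dpc correlated with the added RNAs at r = 0.81 and rho = 0.83, GALP at 1 dpn with the actin measure at r = -0.73 and rho = -0.87, and LBP at 28 dpn with the added RNAs at r = -0.78 and rho = -0.77 (permutation test, adjusted p = 0.0192, 0.0232 and 0.0232 for r). AMY2 at 188 dpn correlated with the array median at r = 0.74 and rho = 0.64 (permutation test, adjusted p = 0.0232 and 0.187), and r was 0.50 without the 2 farthest arrays. CYP2C49 at 1 dpn correlated with the array median at r = 0.68 and rho = 0.76 (permutation test, adjusted p = 0.113 and 0.0496). The part of these measures in the spread of the genes was not tested.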

How the data were processed

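Liver RNA of 63 animals was measured on Affymetrix porcine arrays. The deposited values are log2 of signals that the authors obtained with GCOS 1.1.1 per the labels. They are MAS5-type signals with a 2% trimmed mean near 500 on each array and values under 1 set to 1, without further normalization between arrays. The 188 control probe-sets were left out. Gene symbols came from the platform annotation.

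The SD was taken over the animals of a stage. Differences in spread were tested with limma 3.58.1 (R 4.3.3) on absolute deviations from the stage median, multiplied by the square root of n/(n − 1), in 1 fit of all arrays and 23935 probe-sets with Benjamini-Hochberg adjustment at 0.05. Pairs of genes were tested on stage-centred values with 100000 two-sided permutations within stages (Python 3.11.15, numpy 2.4.6, scipy 1.17.1, pandas 2.3.3). The scripts were tested on simulated data. Replicates are animals with 1 array each, so p-values measure the spread between animals together with that of labelling and hybridisation. The number of arrays limits the precision. Replicate numbers pair no animals across stages.

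Named genes were the 10 of the highest SD per stage, up to 5 called in each direction per period, up to 6 of each of the 4 largest groups per stage, 2 to 4 per described list, the 6 most even genes, the genes with a PCR assay and those next to the mean of 8. The members, lists and alternatives were chosen with earlier results of these data known. Alternatives were quantile normalization, centring, other limits of level, a floor, other measures of spread, a fit on the RNAs added at labelling, and leaving out arrays. Centring within labelling classes and leaving out each array in turn were added after the data were seen. No sequences were used here.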

Additional observations from a re-analysis of the deposited data

How the results depend on the processing

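With the median absolute deviation the median spread was 0.232, 0.312, 0.240 and 0.285 at 94 dpc, 1 dpn, 28 dpn and 188 dpn. After quantile normalization it was 0.304, 0.365, 0.240 and 0.271, which places 94 dpc above 188 dpn. With a mean of 7 or more it was 0.376, 0.289 and 0.336 at 1, 28 and 188 dpn, and with 9 or more 0.322, 0.230 and 0.279. Without the 94 dpc replicates 6 and 13 it was 0.228 at 94 dpc, and the first component there held 14.4%. Leaving out 1 array gave 0.235 to 0.273 at 94 dpc, 0.330 to 0.351 at 1 dpn, 0.250 to 0.257 at 28 dpn and 0.293 to 0.307 at 188 dpn. The first component at 94 dpc then held 18.0% to 35.3%.

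The counts of called members moved far more than the medians. For all 4 stages, period I, period II and period III they were 125, 46, 27 and 1. Quantile normalization gave 200, 89, 85 and 0, and a floor of 6 gave 419, 179, 256 and 2. Deviations from the stage mean gave 498, 237, 250 and 7, and the ratio of variances, which is sensitive to single far values, gave 1516, 584, 644 and 24. With the added RNAs as a covariate periods I and II gave 76 and 60, and with a fit over the members alone 140 and 107. Moderation with trend and robust settings gave 0 in period III. Without the 94 dpc replicates 6 and 13 the first 3 counts were 170, 87 and 43, and without the 1 dpn replicates 9, 11 and 12 they were 51, 9 and 3, the last 2 of which held 5 larger and 4 smaller, and 1 larger and 2 smaller. The causes were not tested.

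Leaving out 1 array gave 83 to 169, 18 to 78, 11 to 38 and 0 to 2. The overall count moved by more than 1.5 times without 1 dpn replicate 12 (83). In period I the arrays of this kind were 94 dpc replicates 3 (30), 5 (29), 6 (78), 7 (23), 8 (29), 9 (28), 10 (28) and 15 (30), 1 dpn replicates 4 (21), 9 (29), 11 (18) and 12 (18) and 188 dpn replicate 1 (30). In period II they were 1 dpn replicates 4 (13), 9 (15), 11 (11), 12 (14) and 15 (17). In period III the count was 0 without 28 dpn replicates 1, 12 or 15 or 188 dpn replicates 1, 4, 5, 7, 8, 11, 13 or 16, and 2 without 28 dpn replicate 2.

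Of the 14 tests of named genes, 6 kept their call in each of 13 settings, namely IGFBP1, GULO, FOS and PCK1 in period I and FNTA and HIST1H2BD in period II. ACSS2 lost it under quantile normalization and under trend and robust moderation, with an adjusted p of at most 0.155 from limma, and no gene changed direction.

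Of the pairs, 24 were called (64.9%) with the 25 most variable genes, and 63.8% without the 94 dpc replicates 6 and 13. For pairs grouped at 28 dpn, 8 of 11 were called, against 3 of 11 after the fit on the RNAs added at labelling. Centring within the labelling classes gave 3 of 10. For pairs grouped at 188 dpn these values were 9 of 13, 7 of 11 and 10 of 14. Leaving out 1 array gave 41 to 67 called pairs, or 36.9% to 63.1%. No paired analysis was possible because replicate numbers follow array order and pair no animals across the stages. Genes under a mean of 8 were not compared, which leaves out part of each list.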
